A study of Mus musculus with 4 samples.

Results

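Clustered places are stretches of chromatin where binding sites of Ldb1, Tal1 and Gata1 were all called and where another such place lay nearby. They were found in chromatin immunoprecipitation sequencing (ChIP-seq) of total mouse bone marrow. Sites of the 3 lists on chromosomes 1 to 19 were pooled, and sites whose neighbouring centres (the mean of start and end) lay at most 200 bp apart were joined into a place. A place was kept when it held a site of each antibody and when its centre lay within 20 kb of the centre of another such place. This gave 807 clustered places out of 9522 places of any kind (8.48%) and out of 2249 places of all 3 antibodies (35.9%, 95% interval 33.9 to 37.9). The remaining 1442 places of all 3 antibodies are called solitary below. Clustered places within 20 kb of each other were chained into 346 clusters. The calls that chose these places came from the same tags described here, so their enrichment, spacing and number are a description and carry no test.

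The study asked about the part of Ldb1 complexes in the activation of erythroid genes. It held 4 libraries from freshly isolated, formaldehyde-fixed cells of total bone marrow, 1 each for antibodies to Ldb1 (spelled Lbd1 in one label), Scl/Tal1 (Tal1 below), Gata1 and control IgG. The labels give neither strain, age nor genotype, and name no sort, so erythroid cells and all other marrow cells gave the chromatin together. Calls that coincide in separate libraries of mixed cells do not show the proteins side by side in 1 cell, and a difference in the share of cells bound cannot be told apart from one in binding per cell. There was no replicate: intervals below cover counting error in 1 library only, and a difference between antibodies compares 2 libraries. Intervals are 95% intervals, exact Clopper-Pearson for shares, exact conditional for ratios, and from order statistics for medians. Those of shares that count clustered places or neighbouring pairs, and that of the median spacing, treat the places or pairs as independent. Places of 1 cluster are not, nor are pairs that share a place, so these intervals are too narrow.

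Ldb1 does not bind DNA itself; it is an adaptor that binds LIM-only proteins and other Ldb1 molecules, and is known for joining distant enhancers to promoters at erythroid genes. Tal1, of the basic helix-loop-helix class, pairs with an E protein to recognise E-boxes. Gata1 has zinc fingers that recognise GATA motifs and is needed for red cell and megakaryocyte development. In erythroid cells the 3 are known as parts of 1 complex, bridged by Lmo2, on elements that often sit in groups around a gene. Positions refer to the mouse assembly mm8. Neither genes nor sequences are given for them, since a genome and annotation of mm8 were not used here.

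The libraries held 4583315 (Ldb1), 3644976 (Tal1), 7004963 (Gata1) and 5748976 (IgG) tags with a distinct position and strand, out of 5767555 to 7873298 tags. Levels are given as distinct tags within 250 bp of a place centre, each tag counted for its nearest place of all 3 antibodies, per 1000000 distinct tags of the library (RPM). Parts of wide places further than 250 bp from the centre were not counted. IgG tags were 36 bases long and those of the antibodies 25, and the effect of this on ratios to IgG was not tested.

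Most clusters were small. Of the 346 clusters, 263 held 2 places (76.0%, 71.2 to 80.4), 60 held 3, 16 held 4, 5 held 5 and 2 held 6. Clusters of 3 or more were fewer, 83 in all, but they held 281 of the 807 places (34.8%). The spacing of the 461 neighbouring pairs ranged from 283 to 19853 bp, with a median of 5473 bp (4720 to 6084) and quartiles of 1813 and 11197 bp. Short spacings were frequent: 69 pairs (15.0%, 11.8 to 18.6) lay under 1000 bp apart, 25 of them under 500 bp, where the fragments of one place can reach the next. A further 56 pairs lay 1000 to 2000 bp apart, 88 lay 2000 to 5000 bp apart, 114 lay 5000 to 10000 bp apart and 134 lay 10 to 20 kb apart.

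**Figure D1:**
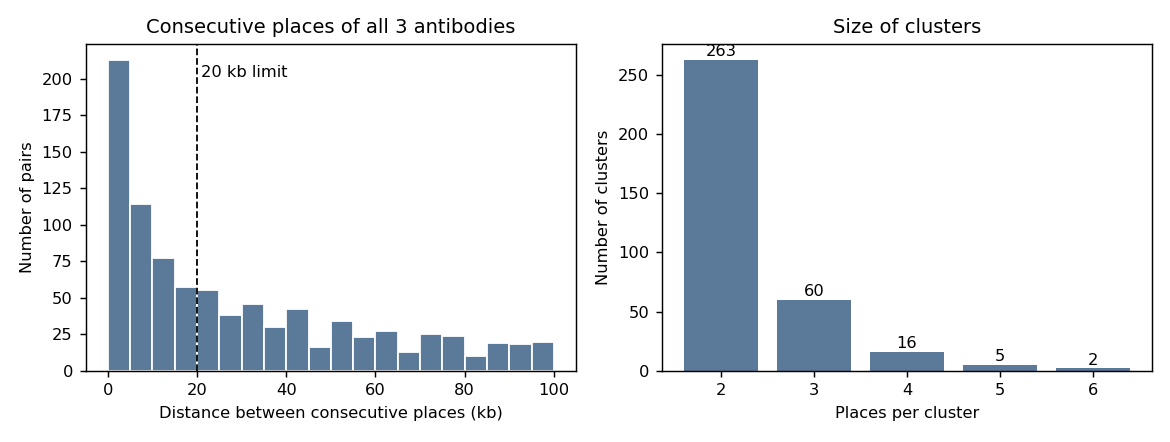
Left, number of pairs of consecutive places of all 3 antibodies by the distance between them, in bins of 5 kb up to 100 kb, with the 20 kb limit dashed. Right, number of clusters by places per cluster; 263 of 346 clusters held 2 places, and the pairs thin out across the limit without a break.

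The limit of 20 kb did not fall at a gap in the distances. Over all 2230 pairs of consecutive places of all 3 antibodies the median distance was 207.9 kb. Of these pairs, 327 lay within 10 kb, 134 lay 10 to 20 kb apart, 93 lay 20 to 30 kb apart, 76 lay 30 to 40 kb apart and 58 lay 40 to 50 kb apart, so the number fell step by step with distance. The pairs just inside the limit were 19743, 19833 and 19853 bp apart, and those just outside were 20137, 20170 and 20183 bp apart.

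The span of a cluster grew with its number of places, which follows from adding up more gaps. The places of a cluster of 2 spanned a median of 5623 bp, those of a cluster of 3 spanned 9497 bp (1183 to 34830), and those of 4 or more spanned 24230 bp (7378 to 48883, 23 clusters). Spacing inside a cluster was uneven. In the clusters of 3 places the wider gap was a median of 2.65 times the narrower one (quartiles 1.54 and 4.45), and it was at least 5 times as wide in 15 of 60. The share of places that were clustered ranged from 19.7% on chromosome 19 (15 of 76, interval 11.5 to 30.5) to 45.7% on chromosome 12 (53 of 116, 36.4 to 55.2). Chromosome 11 had the most clustered places, 73 of 188. The intervals of chromosomes 19 and 12 did not overlap, but these are the extremes of 19 chromosomes. Places also become clustered at least 2 at a time, so these intervals are too narrow to read a difference from.

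Within a place the 3 antibodies lay close together, whether the place was clustered or not. A clustered place held exactly 1 site per antibody in 735 of 807 cases (91.1%), and a solitary place in 1352 of 1442 (93.8%). The median distance between site centres in clustered places was 30 bp for each pair of antibodies, with upper quartiles of 70 bp (Ldb1 and Tal1), 80 bp (Ldb1 and Gata1) and 70 bp (Tal1 and Gata1). Solitary places had the same medians. Joining centres at most 200 bp apart keeps these distances short in both kinds of place, so they are a description only.

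Places called for only 1 or 2 of the antibodies lay around the clusters as well. Such a place lay within 20 kb of 577 of the 807 clustered places (71.5%, 68.2 to 74.6) and of 750 of the 1442 solitary places (52.0%, 49.4 to 54.6). The rule did not use this measure, but 1 library per antibody allows no test of the difference. Clustered places near each other can also count the same nearby place, so their interval is too narrow. Inside the spans of the clusters there were 216 such places, in 131 of the 346 clusters. By antibody, 69 of these were called for Tal1 alone, 50 for Gata1 alone, 34 for Ldb1 alone, 25 for Ldb1 and Tal1, 23 for Tal1 and Gata1 and 15 for Ldb1 and Gata1. Places of Tal1 alone were thus the most numerous class inside clusters. The number of each class over all places was not set beside these counts, so their order is not read as a trait of clusters. Around the clustered places, a place of Tal1 alone lay within 20 kb in 34.9% (31.7 to 38.3), against 19.8% (17.7 to 21.9) of solitary places. For Gata1 alone the shares were 30.9% and 22.6%, and for Ldb1 alone 22.3% and 12.2%.

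The level at clustered places varied widely for each antibody. Ldb1 ranged from 1.96 to 46.0 RPM with a median of 8.07, Tal1 from 2.19 to 70.8 with a median of 10.4, and Gata1 from 1.71 to 24.98 with a median of 4.71. IgG stood between 0 and 1.22 RPM, median 0.348, where 1 tag is 0.174 RPM. Summed over all clustered places, Ldb1 was 33.5 times IgG (31.7 to 35.3), Tal1 44.9 times (42.6 to 47.4) and Gata1 19.1 times (18.1 to 20.2). These sites were called for their tags, so the ratios describe the places and test nothing. The 807 places took up 0.820% of the Ldb1 library, 1.10% of Tal1, 0.469% of Gata1 and 0.0245% of IgG.

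Clustered and solitary places overlapped in level over nearly the whole range. Solitary places had medians of 6.76 RPM (Ldb1), 8.23 (Tal1), 4.28 (Gata1) and 0.174 (IgG), and summed ratios to IgG of 26.9 (Ldb1), 36.0 (Tal1) and 15.9 (Gata1). The highest levels were alike, 45.4 RPM of Ldb1 and 75.2 of Tal1 at solitary places. The strongest place of a cluster had a median of 12.4 RPM (Ldb1), 16.9 (Tal1) and 6.71 (Gata1), and the weakest had 5.24, 6.31 and 3.43, so that each antibody's solitary median lay between them. A strongest and a weakest place are picked by their level, so the order of these medians is fixed by the choice. Clusters of 3 places had medians per place of 9.16 RPM (Ldb1), 12.9 (Tal1) and 5.42 (Gata1), those of 2 places 7.64, 9.88 and 4.57, and those of 4 or more 8.51 for Ldb1 and 9.88 for Tal1, so the level did not go up steadily with the number of places.

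**Figure D2:**
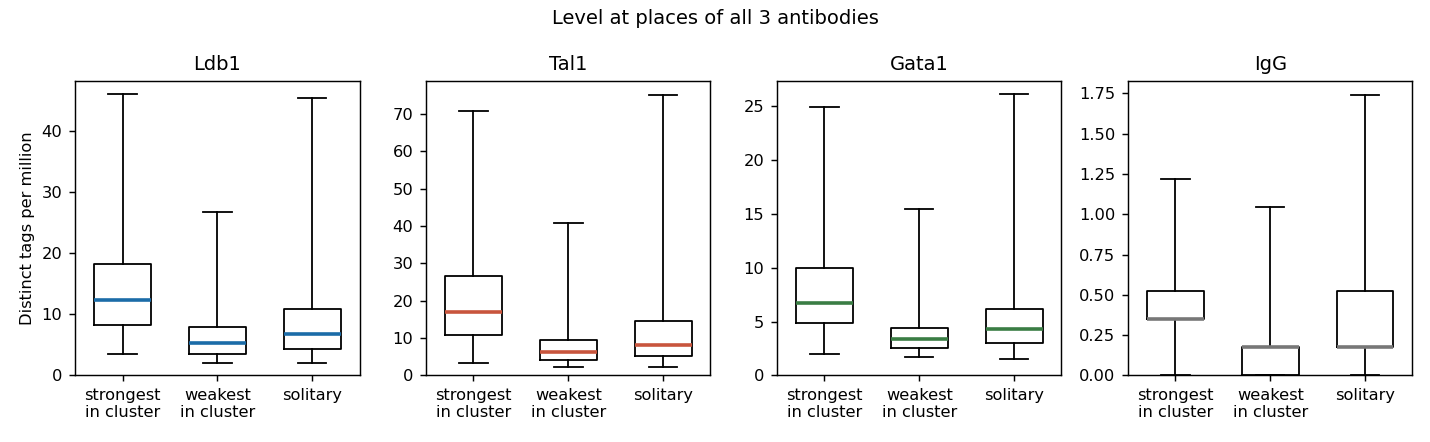
Distinct tags per 1000000 at places of all 3 antibodies, for the strongest and the weakest place of each of 346 clusters (chosen separately for each library) and for 1442 solitary places. Boxes span the quartiles with the median as a coloured line and whiskers reach the lowest and highest values; for each antibody the solitary median lies between the medians of the strongest and the weakest place.

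The proportions of the antibodies differed little between clustered and solitary places. Ldb1 stood at a median of 0.774 times Tal1 there and 0.782 times at solitary places. The median ratio of Ldb1 to Gata1 was 1.74 at clustered and 1.64 at solitary places, and that of Tal1 to Gata1 was 2.18 and 2.05. Of the clustered places, 12 had Ldb1 at least 2-fold above Tal1 (1.49%, against 14.4% of all 9522 places) and 97 had it at least 2-fold below (12.02%, against 22.5%). Ldb1 was at least 2-fold above Gata1 at 256 places (31.7%, against 25.6%) and at least 2-fold below at 5 (0.620%, against 18.5%). Tal1 was at least 2-fold above Gata1 at 453 places (56.1%, against 34.3%) and at least 2-fold below at 3 (0.372%, against 16.0%). The rule required calls from these same tags for all 3 antibodies, so nothing is read from these shares against the background. They exceed the background in 2 of the 6 cases. Background tags were counted for the nearest place of any kind, so the counts also differ in method where places lie close together. Solitary places gave 1.11%, 12.3%, 29.1%, 0.416%, 51.7% and 0.416% in the same order.

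The few clustered places where Gata1 was at least 2-fold above Ldb1 or Tal1 were looked up after their values were seen. Ldb1 was the lower one at 21015451 to 21015651 of chromosome 9, at 32728531 to 32728731 of chromosome 12, at 23768791 to 23769411 of chromosome 13, and at 46155611 to 46155691 and 53640471 to 53640791 of chromosome 14. The place on chromosome 9 had 14.6 RPM of Gata1, 10.2 of Tal1 and 4.15 of Ldb1, so Gata1 was above its median, Tal1 near it and Ldb1 below it. Tal1 was the lower one at 121250371 to 121250851 of chromosome 11, at 47041971 to 47042111 of chromosome 17, and at the same place of chromosome 13, where Gata1 had 9.99 RPM, Tal1 4.12 and Ldb1 3.93.

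How tags were shared out was described by the lead place, the place with the most tags of a given antibody in its cluster. In the 263 clusters of 2 places the lead held a median of 62.2% of the Ldb1 tags (60.6 to 64.7), 66.7% of the Tal1 tags (64.3 to 68.5) and 60.8% of the Gata1 tags (59.6 to 62.4). The highest lead share was 93.4% (Ldb1), 93.2% (Tal1) and 90% (Gata1). A lead share cannot be under 50%, and counting error alone raises it: IgG, with a median of 3 tags per cluster, gave 75%. The antibodies had medians of 81 (Ldb1), 84 (Tal1) and 71 (Gata1) tags per cluster, so their shares rest on far more tags.

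Many clusters were close to even, and the share of tags left out an even split in only part of them. Among clusters of 2 the interval of the Ldb1 share left out 50% in 136 (51.7%), that of Tal1 in 165 (62.7%) and that of Gata1 in 114 (43.3%). The lead held at least 75% of the tags in 57, 71 and 38 of the 263 clusters, and at most 60% in 109, 89 and 124. Tal1 was therefore the most uneven of the 3 by each of these counts and Gata1 the least. Each place needed a call for each antibody, so its weaker place could not fall below what the caller accepts, which limits the lead share. Lowest and median levels were 1.96 and 8.07 RPM (Ldb1), 2.19 and 10.4 (Tal1) and 1.71 and 4.71 (Gata1). The limit can thus differ between antibodies, and its part in their order was not tested. Counts of intervals also depend on the tags per cluster. Cluster by cluster, the Tal1 lead share was above that of Gata1 in 169 of 263 and equal in 1, and the Ldb1 lead share was above that of Gata1 in 162 and equal in 1. Tal1 had the highest median share in each of the 13 other settings tried. With each library thinned at random to the depth of Tal1, Gata1 had 62.8% (60.5 to 64.7) and Ldb1 62.6% (60.9 to 65.6). These 2 could thus not be ordered at equal depth.

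The lead place was the same for the 3 antibodies in most clusters. The lead place was the same for all 3 in 163 of the 263 clusters of 2 places (62.0%, 55.8 to 67.9), in 34 of 60 clusters of 3 (56.7%, 43.2 to 69.4) and in 13 of 23 larger ones (56.5%, 34.5 to 76.8). In clusters of 2, Ldb1 and Tal1 shared the lead in 78.7%, Ldb1 and Gata1 in 74.9% and Tal1 and Gata1 in 68.4%. Where neither was tied, the IgG lead matched that of Ldb1 in 107 of 206 clusters of 2 (51.9%, 44.9 to 58.9), that of Tal1 in 51.2% and that of Gata1 in 52.2%. With a median of 3 IgG tags per cluster its lead is mostly counting noise, so these shares are no contrast to those of the antibodies. Ldb1 led elsewhere than the other antibodies in 16 clusters of 2, Tal1 in 31 and Gata1 in 39. A further 14 clusters had a tie, which counts as not the same. The lead was not compared at neighbouring places of other kinds, so its agreement is not read as a trait of clusters.

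Where the split was uneven for each antibody, the lead was shared. There were 76 clusters of 2 places in which the interval left out an even split for each of the 3 antibodies, and all 76 had the same lead (95.3% to 100%). Taken in pairs, Ldb1 and Gata1 were both uneven in 81 clusters and led at the same place in every one. Ldb1 and Tal1 were both uneven in 104 clusters and led at opposite places in 2, and Tal1 and Gata1 in 96 clusters with 5 opposite.

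The clusters with opposite leads were looked up after their values were seen. Those of Ldb1 and Tal1 lay on chromosome 5. At the places from 114238531 to 114238611 and from 114250731 to 114250811, Ldb1 had 57 and 30 tags, Tal1 33 and 67, and Gata1 39 and 46. At those from 123021591 to 123021731 and from 123035791 to 123035871, Ldb1 had 48 and 21, Tal1 33 and 54, and Gata1 45 and 45. In both clusters Gata1 was close to even while the other 2 antibodies leaned apart. The 5 clusters of opposite Tal1 and Gata1 leads began on chromosome 7 at 63875631, chromosome 8 at 88269571, chromosome 9 at 31004291, chromosome 11 at 77882251 and chromosome 13 at 23768791. On chromosome 11 the first place had 139 Tal1 and 52 Gata1 tags and the second, 3667 bp on, had 59 and 86, while Ldb1 had 83 at each.

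The same pattern showed in the shares themselves. Across the 263 clusters of 2, the percentage of tags at the place with the lower coordinate went together between Ldb1 and Tal1 (Pearson r = 0.820, Spearman rho = 0.805), Ldb1 and Gata1 (0.790 and 0.758) and Tal1 and Gata1 (0.715 and 0.681). Against IgG, in the 253 clusters with an IgG tag, the Pearson coefficients were 0.032 (Ldb1), 0.029 (Tal1) and 0.029 (Gata1), but shares of so few IgG tags would give a low coefficient however they were spread. Each point is a cluster of the same libraries and all were chosen by calls in them, so these coefficients describe the clusters and carry no p. The shares of Ldb1 and Tal1 differed by a median of 7.78 percentage points (at most 32.5), those of Ldb1 and Gata1 by 7.91 (at most 32.8) and those of Tal1 and Gata1 by 8.90 (at most 49.2).

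**Figure D3:**
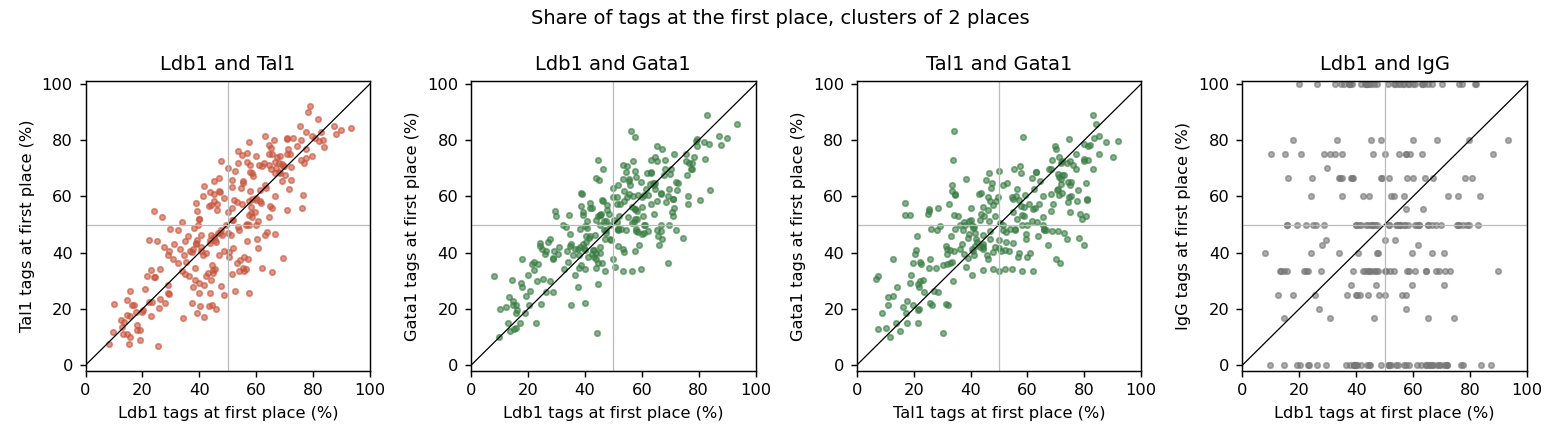
Percentage of a library's tags at the place with the lower coordinate in each of 263 clusters of 2 places (253 for IgG), for Ldb1 and Tal1, Ldb1 and Gata1, Tal1 and Gata1, and Ldb1 and IgG. Each point is a cluster, the diagonal marks equal shares and grey lines mark 50%; the antibody pairs follow the diagonal (r = 0.820, 0.790 and 0.715), while the IgG shares (r = 0.032) rest on a median of 3 tags per cluster and are too noisy to compare.

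Spacing had no steady relation to how tags were shared out. The Tal1 lead share had a median of 70.3% in the 48 clusters of 2 spaced up to 1000 bp, 63.0% in the 76 spaced 1000 to 5000 bp, 71.7% in the 56 spaced 5000 to 10000 bp and 66.1% in the 83 spaced wider. The same lead for all 3 was found in 36 of 48 (75%, 60.4 to 86.4), 43 of 76 (56.6%, 44.7 to 67.9), 38 of 56 (67.9%, 54.0 to 79.7) and 46 of 83 (55.4%, 44.1 to 66.3) of these clusters, with intervals that overlap. In clusters of 3 the middle place led in 23 of 60 for Ldb1, 21 for Tal1 and 23 for Gata1.

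Neighbouring places could still differ in their balance of antibodies. For each of the 461 neighbouring pairs the ratio of tags between the places for one antibody was divided by the same ratio for another, and a pair was called where this was past 2-fold with an interval that left out 1. Ldb1 and Tal1 were called in 75 pairs (16.3%, 13.0 to 19.96), against 15.6% of all 3770 pairs of neighbouring places of any kind within 20 kb. Ldb1 and Gata1 were called in 59 pairs (12.8%, 9.89 to 16.2), against 22.6%, and Tal1 and Gata1 in 107 (23.2%, 19.4 to 27.3), against 26.4%. The Ldb1 and Tal1 share was near the background. The background holds places called for only some antibodies, which differ in balance by their choice. A lower share at clustered places is therefore no result about them. The background was also counted differently, each tag going to its nearest place of any kind. The 461 pairs can have a place called for only some antibodies between them, so they are not a part of the 3770. The median size of the difference was 1.46-fold between Ldb1 and Tal1, 1.401-fold between Ldb1 and Gata1 and 1.52-fold between Tal1 and Gata1. With duplicate tags kept, 130 pairs were called between Ldb1 and Tal1, 102 between Ldb1 and Gata1 and 144 between Tal1 and Gata1. No share over all neighbouring pairs was set beside these counts, and duplicate tags are not independent, so nothing is read from the rise.

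The largest difference in balance was on chromosome 13, between the place from 23768791 to 23769411 and that from 23772051 to 23772171, 3097 bp apart. The first had 15 Tal1, 70 Gata1, 18 Ldb1 and 1 IgG tags, and the second had 29, 14, 14 and 3. The ratio of Tal1 to Gata1 tags was 9.25 times as high at the second (3.84 to 24.7). Gata1 thus had fewer tags at the second place and Tal1 more, while Ldb1 was nearly level.

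For Ldb1 and Gata1 the largest difference lay on chromosome 9, from 21014771 to 21014911 and from 21015451 to 21015651. The places, 767 bp apart, had 15 and 19 Ldb1, 16 and 37 Tal1, and 13 and 102 Gata1 tags, a 6.04-fold difference (2.31 to 16.5). Here Gata1 was concentrated in the second place and Ldb1 was close to even. Ldb1 and Tal1 differed most on chromosome 6, between the place from 29649571 to 29649671 (34 Ldb1, 14 Tal1 and 28 Gata1 tags) and that from 29647511 to 29647791 (42, 91 and 48), a 5.12-fold difference (2.43 to 11.7). A place on chromosome 1 from 183159971 to 183160051 had 31 Ldb1 but 9 Tal1 tags, against 91 and 124 at its neighbour 11463 bp away, and was among the 5 largest differences for Tal1 against Ldb1 (4.51-fold) and against Gata1 (5.89-fold). The other pairs named by size ranged from 3.80 to 3.85-fold for Ldb1 and Tal1, from 3.81 to 5.28-fold for Ldb1 and Gata1 and from 5.76 to 6.34-fold for Tal1 and Gata1. These were picked as the extremes of 461 pairs.

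The cluster with the best mean rank of tags over the 3 antibodies lay on chromosome 11 from 32145811 to 32169211. Its 5 places, at 0, 5.13, 10.5, 19.4 and 23.3 kb from the first, had 211, 67, 47, 36 and 64 Ldb1 tags. Tal1 had 195, 73, 63, 22 and 61 tags and Gata1 140, 44, 39, 24 and 37. The first place led for each antibody, with 49.6% of the Ldb1 tags (44.8 to 54.5), 47.1% of Tal1 and 49.3% of Gata1, and the fourth had the fewest. IgG had 8 tags over the cluster, 1 of them at the first place. The intervals of the shares overlapped between the antibodies at each of the 5 places, and no place of 1 or 2 antibodies lay inside.

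The clusters of 6 places covered 40877991 to 40924711 of chromosome 10 and 105412611 to 105442291 of chromosome 12. On chromosome 10 the Ldb1 tags from the first place to the last were 46, 30, 99, 69, 56 and 16, those of Tal1 75, 15, 166, 83, 59 and 22, and those of Gata1 37, 18, 88, 48, 30 and 13. The third place led for each antibody, with 31.3% of the Ldb1 (26.3 to 36.8), 39.5% of the Tal1 and 37.6% of the Gata1 tags. IgG had 16 tags there in all and its lead was the first place. At the second place Tal1 held 3.57% of its tags (2.01 to 5.82) and Ldb1 9.49% (6.50 to 13.3). On chromosome 12 the tags were 29, 55, 43, 88, 39 and 33 for Ldb1, 18, 53, 41, 107, 54 and 20 for Tal1 and 20, 38, 36, 94, 29 and 24 for Gata1. The fourth place led for each of them, with 30.7%, 36.5% and 39.0%, and also for IgG (6 of 18 tags). Within these 2 clusters the antibodies agreed on 1 main place and the other places held most of the tags.

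**Figure D4:**
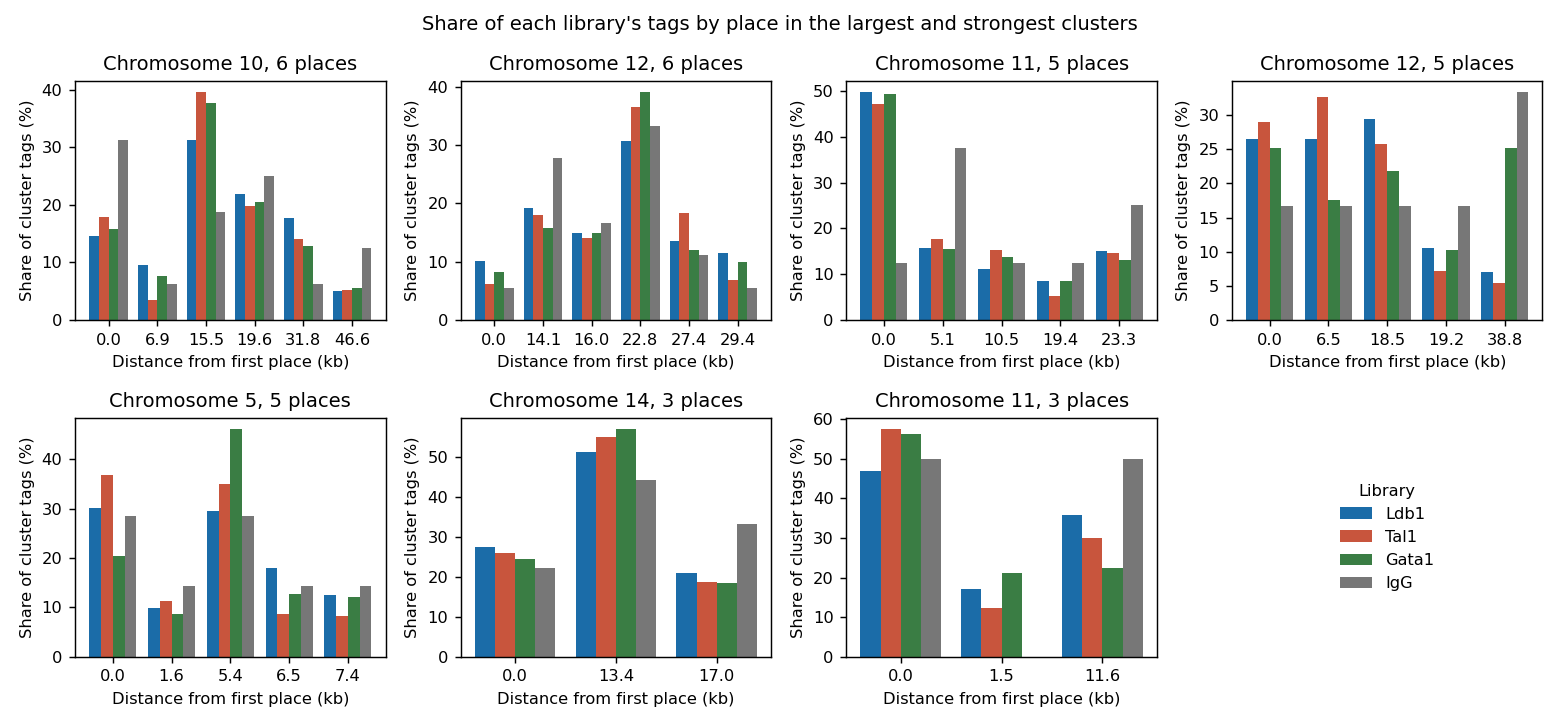
Share of each library's tags by place, for the 5 clusters with the most places and the 5 with the best mean rank of tags (7 clusters in all, since 3 are in both sets). Bars give the percentage of the cluster's tags of Ldb1, Tal1, Gata1 and IgG at each place, labelled by its distance in kb from the first; the vertical axes differ between panels and IgG bars rest on 6 to 18 tags.

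Another strong cluster of 3 places on chromosome 14, from 68258291 to 68275731, had 94, 176 and 72 Ldb1 tags, 99, 209 and 71 Tal1 tags and 64, 149 and 48 Gata1 tags, with the middle place in the lead each time. On chromosome 11 from 102179851 to 102191491, 3 places had 139, 51 and 106 Ldb1, 241, 52 and 126 Tal1, and 130, 49 and 52 Gata1 tags. The first place led for all 3 there, but the third held 35.8% of the Ldb1 tags (30.3 to 41.6) and 22.5% of the Gata1 tags. The antibodies thus agreed on the lead and differed in what was left to the last place.

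The largest clusters did not all agree on the lead. On chromosome 12 from 32689711 to 32728731, 5 places had 53, 53, 59, 21 and 14 Ldb1 tags and 80, 90, 71, 20 and 15 Tal1 tags, so the first 3 places were close to even. Gata1 had 59, 41, 51, 24 and 59 tags, and its share at the last place was 25.2% (19.8 to 31.3), level with the first, against 7% for Ldb1 (3.88 to 11.5) and 5.43% for Tal1. On chromosome 5 from 135198351 to 135205991, 5 places within 7378 bp had 55, 18, 54, 33 and 23 Ldb1, 94, 29, 89, 22 and 21 Tal1 and 42, 18, 95, 26 and 25 Gata1 tags. The first and the third place were near level for Ldb1 and Tal1, while Gata1 had 46.1% at the third. The other clusters of 5 places, named only because they are few, covered 93248871 to 93263631 of chromosome 2 and 38829731 to 38854311 of chromosome 6.

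Of the clusters whose lead was not the same for the 3, the one with the most tags had 2 places 18740 bp apart on chromosome 17, from 25670531 to 25689311. It had 119 and 112 Ldb1, 171 and 136 Tal1, and 74 and 79 Gata1 tags, so no antibody was far from even. The second, on chromosome 8 from 125195591 to 125207951, had 114 and 135 Ldb1, 88 and 113 Tal1, and 126 and 108 Gata1 tags, and the interval of each share held 50% there as well. On chromosome 14 from 46437731 to 46455751 the last of 3 places led for Ldb1 and Tal1 (80 and 135 tags) and the middle one for Gata1 by 76 tags to 73. On chromosome 6 from 88696731 to 88725671, 4 places had 55, 35, 57 and 52 Ldb1, 55, 67, 63 and 86 Tal1, and 30, 29, 75 and 32 Gata1 tags, and only Gata1 had a clear lead, with 45.2% at the third.

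The stretches between the places of a cluster were measured because the rule did not use them. Sequence at least 1000 bp from any site of the 3 lists was counted between neighbouring places (2150 kb in 368 stretches). The same was done outside the cluster, over stretches as wide as its end gaps (3943 kb), and 100 to 200 kb away (67681 kb). Sequence between places has a place at both ends, so it lay nearer to a place than much of that outside. Between places Ldb1 stood at 1.44 times IgG (1.39 to 1.49), Tal1 at 1.37 times (1.32 to 1.43) and Gata1 at 1.54 times (1.49 to 1.59). Outside, the ratios were 1.37 (1.33 to 1.41), 1.36 (1.32 to 1.3996) and 1.49 (1.46 to 1.53), and far away they were 1.13, 1.14 and 1.17. All 3 antibodies were thus above IgG, by less than 2-fold, in sequence without a called site on both sides of a clustered place.

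Sequence inside a cluster held slightly more tags per kb than the stretch outside it, and more so in short gaps. The inside lies nearer to a place by construction, so the ratios of density below do not compare equal distances. At equal distances, the Ldb1 ratio to IgG was 1.67 inside and 1.82 outside at 1000 to 1500 bp. At 1500 to 2000 bp it was 1.73 and 1.59, so the inside was not steadily higher. Per kb over all gaps, Ldb1 was 1.11 times as dense between places as outside (1.07 to 1.14), Tal1 1.06 times (1.03 to 1.10), Gata1 1.09 times (1.06 to 1.11) and IgG itself 1.05 times (1.02 to 1.09). Most of this sequence, 1561 of 2150 kb, came from gaps of 10 to 20 kb. In gaps up to 5000 bp the ratios were 1.34 (Ldb1, 1.19 to 1.51), 1.17 (Tal1, 1.01 to 1.35), 1.19 (Gata1, 1.09 to 1.31) and 1.23 (IgG, 1.07 to 1.42). In gaps of 5000 to 10000 bp they were 1.22 (Ldb1, 1.15 to 1.30), 1.12 (Tal1, 1.04 to 1.20), 1.15 (Gata1, 1.09 to 1.21) and 1.10 (IgG, 1.03 to 1.18). The interval of IgG overlapped that of each antibody in both classes of gap. Compared with sequence 100 to 200 kb away, the ratios were 1.46 (1.42 to 1.49), 1.37 (1.34 to 1.41), 1.504 (1.47 to 1.53) and, for IgG, 1.14 (1.11 to 1.17). IgG was higher there along with the antibodies, and its part in these ratios was not tested. The excess over IgG was higher in short gaps: between places up to 5000 bp apart Ldb1 had 1.85 (1.58 to 2.17), Tal1 1.57 (1.31 to 1.87) and Gata1 1.89 (1.63 to 2.20), on 89.2 kb, against 1.38, 1.35 and 1.51 between places 10 to 20 kb apart. In stretches of the same width outside the clusters Ldb1 had 1.70 (1.54 to 1.88), Tal1 1.66 (1.49 to 1.84) and Gata1 1.95 (1.79 to 2.14). The higher excess near places was thus found on both sides, with intervals that overlapped.

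Away from a place the tags fell off steeply on each side. At 250 to 500 bp from the centre, Ldb1 was 4.32 times IgG on the side facing another place (3.96 to 4.71), 4.14 times on the outer side of a cluster (3.78 to 4.54) and 3.30 times at solitary places (3.15 to 3.46). At 500 to 1000 bp, the ratios were 2.76, 2.57 and 2.05 for Ldb1, 2.88, 2.36 and 2.07 for Tal1 and 2.77, 2.51 and 2.18 for Gata1. By 2 to 3 kb, leaving out sequence within 1000 bp of a site, Ldb1 was at 1.41, 1.44 and 1.36 times IgG. For Tal1 at 500 to 1000 bp the interval of the facing side (2.67 to 3.11) lay above that of the outer side (2.19 to 2.56). The facing side had 1919 Tal1 and 1051 IgG tags on 365 kb, the outer side 1605 and 1071 on 346 kb. Both libraries thus enter this gap, which is picked out as the largest among the distances and antibodies. For Ldb1 and Gata1 the intervals of these sides overlapped. Within 1000 bp, the ratios at clustered places were above those at solitary ones on both sides, as they were at the centres. Other called sites were not left out within 1000 bp. A place of 1 or 2 antibodies lay within 1 kb of 22.3% of clustered and 15.3% of solitary places. The facing side can also hold tags of the neighbouring place. The part of either in the differences within 1000 bp was not tested.

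**Figure D5:**
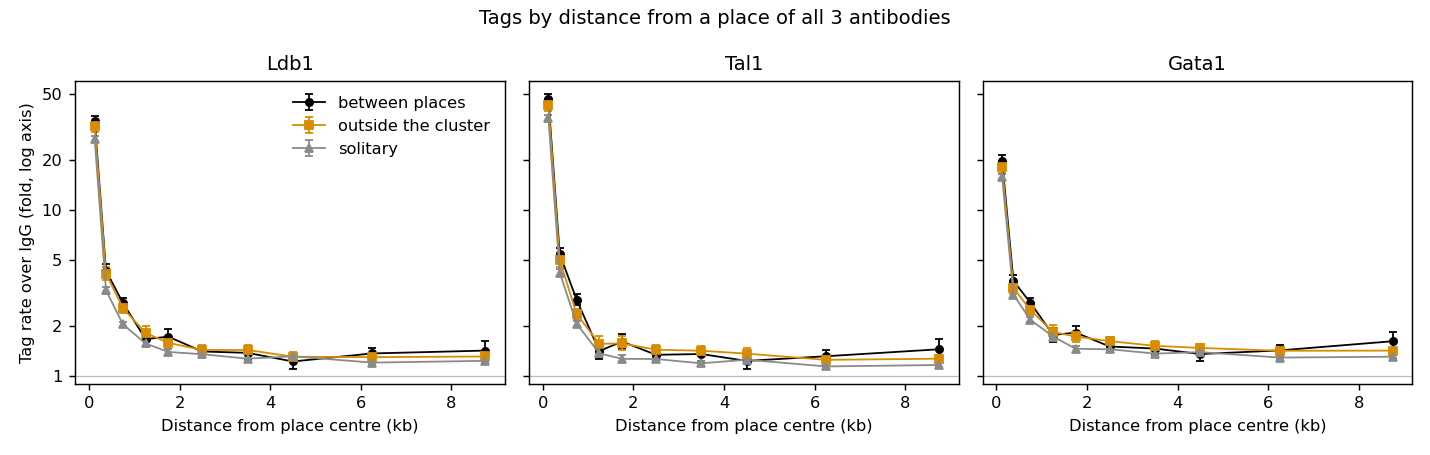
Rate of distinct tags over IgG (fold, log axis) by distance from the centre of a place of all 3 antibodies, for the side facing a neighbouring place up to the midpoint, the outer side of a cluster, and solitary places. Bars are 95% counting intervals, and sequence within 1000 bp of a called site is left out beyond 1 kb; the facing and outer sides differ most for Tal1 at 500 to 1000 bp, and the curves run from above 15 times IgG at the centre to under 2 times beyond 1 kb.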

How the data were processed

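Tag lists of 4 libraries and site lists of the 3 antibodies were used. The deposited tag lists give 1 aligned tag per line. The build is mm8, as in the submitters' processing notes, and the aligner is not given in the sources used here. Only positions and strands were taken from them, and the score column the authors deposited was not used. For every antibody the authors ran SISSRs 1.4 against the IgG library, 1 tag per position, a window of 20 bp and a p setting of 0.001, per the file headers. The count of tags per site, the fold over background and the p-value in the deposited lists are the authors'; of these, the count was used only to rank sites. The caller's minimum was 9 tags for Ldb1, 8 for Tal1 and 11 for Gata1, and its fragment lengths were 225, 188 and 235 bp, per the file headers. Its numbers of tags equalled the distinct tags counted here.

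Places, clusters, shares and ratios were computed in scipy 1.17.1, pandas 2.3.3 and numpy 2.4.6 (Python 3.11.15), and plots drawn in matplotlib 3.10.9. Duplicate tags were left out because amplified copies are not independent molecules, and 0.5 was added to each count in a ratio of places or antibodies. The code was tested on simulated data. The members, tests and lists were chosen with earlier results of these data known. Clusters were named by number of places, mean rank of tags, and most tags among those with differing leads (5 each), and pairs by the 5 largest called differences for each 2 antibodies.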

Additional observations from a re-analysis of the deposited data

Results flagged for a closer look

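Chromosome X lies outside the comparisons above. The same procedure gave 6 clustered places there, out of 31 places of all 3 antibodies, in 3 clusters of 2. They are given because the comparisons above leave this chromosome out. The places were chosen by calls from these same tags against IgG, so their ratios had to be high and support nothing: Ldb1 was 41.95 times IgG (21.8 to 92.6), Tal1 58.9 times (30.6 to 129.9) and Gata1 26.6 times (13.8 to 58.8), on 301, 336, 292 and, for IgG, 9 tags. The clusters began at 6994091, 11453671 and 145890271. In the first, Ldb1 and Tal1 were close to even while 71.8% of the Gata1 tags lay at the second place. In the third, the first place led for each antibody, with 56.4%, 60% and 62.4%.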

How the results depend on the processing

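Recomputing under other settings gave 100 values. Of these, 84 lay inside the interval of the reported value (for counts, within 1.5 times) and 16 outside. Settings that moved tags to the fragment centre or left out places under 1000 bp apart were chosen after seeing the data. Chaining sites up to 1000 bp gave a median spacing of 6867 bp. Clustering within 10 kb gave 3281 bp and 81.4% of clusters with 2 places, and within 50 kb 11162 bp and 68.5%; a distance limit sets these by construction. Keeping the sites with at least the median number of tags of their list gave 457 clustered places in 199 clusters, with lead shares of 60% (Ldb1), 62.3% (Tal1) and 59.5% (Gata1). Thinning to the smallest library gave a Gata1 lead share of 62.8%. With duplicates kept, the balance counts were 130 for Ldb1 and Tal1 and 102 for Ldb1 and Gata1, with no background share beside them. Keeping 2000 bp from any site lowered the ratios to IgG between places to 1.34 (Ldb1), 1.30 (Tal1) and 1.45 (Gata1). Causes of the other moves were not tested. No paired analysis was possible because there is no replicate, which also means that none could be left out. Depth limits single clusters, since the lowest had 20 Tal1 tags and the median for IgG was 3 tags.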
